A study of Rattus norvegicus with 16 samples.

Results

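The 8 arrays described here measured NG108 cells of the control group of a drug study. They were chosen by their titles, DMSO control 1 to 8, and make up 8 of the 16 arrays of the series. Each control culture had been kept in 0.25% DMSO, dimethyl sulfoxide, for 2 hours, and 10 µg of total RNA extracted with RNA STAT-60 was hybridised to each Affymetrix rat chip. The other 8 arrays, from cells given mefloquine, an antimalarial drug, are not used here, and no cells without DMSO were compared. The question was therefore which transcripts of the chip gave a signal in these cells under DMSO alone, which did not, and how far the values varied among the 8 arrays. The labels do not say whether the 8 samples came from separate cultures, so the spread among them may be technical.

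NG108 is a line made by fusing mouse neuroblastoma cells with rat glioma cells, and it is used as a dividing cell that can be driven to grow neurites. The labels call it a rat neuronal culture. The probes of the chip were designed on rat sequences, and how well transcripts of the hybrid's mouse genes bind to them was not tested. The genes on the chip range from those that any growing cell uses, such as ribosomal, chaperone and mitochondrial genes, to enzymes of drug metabolism known mainly from liver and cytokines known from immune cells.

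The chip held 1031 probe sets, of which 59 were controls and 972 stood for rat transcripts. Each value is an intensity as the scanner software gave it after chip scaling, and 27% of all intensities on the 8 chips were 0 or negative. The labels do not say how negative values arose. Older Affymetrix software subtracted the signal of mismatched probes, and if that was done here a negative value says that the mismatched probes were brighter, so values below 0 are no measure of absence. A floor was set at the 25th percentile of all positive values of the 8 arrays, an intensity of 433.7, which is 8.76 on the log2 scale. A probe set was called high when it was above the floor on all 8 arrays with a median of at least 10 times the floor (4337), moderate when it was above the floor on all 8 with a lower median, intermittent when it was above on 1 to 7, and near background when it was above on none. An intensity depends on the probes as well as on the transcript, so the values of different genes below are no order of transcript abundance. In a bulk sample, fewer cells that hold a transcript and less of it per cell cannot be told apart.

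Of the 972 probe sets, 160 (16.5%) were high, 219 (22.5%) moderate, 290 (29.8%) intermittent and 303 (31.2%) near background. The extremes were the commonest outcome, since 379 probe sets (39.0%) were above the floor on all 8 arrays and 303 on none, against 22 to 77 for each number of arrays from 1 to 7. Medians of the high probe sets ran from 4369 to 71499. On 121 of the probe sets near background, all 8 values were at or below 0. The 821 probe sets that carry a single gene symbol stood for 549 genes. Taking the brightest probe set of each gene, 103 genes were high, 137 moderate, 164 intermittent and 145 near background, so that 43.7% of genes were above the floor on every array. The class boundaries are not gaps in the data. Among probe sets with a single symbol, the nearest below the high threshold were those of St13 and Gstp1 (medians 4208 and 4224). Those just above it were of Ndufs5 and Hspa9 (4369 and 4424). The highest median of any moderate probe set was 4260.4.

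**Figure D1:**
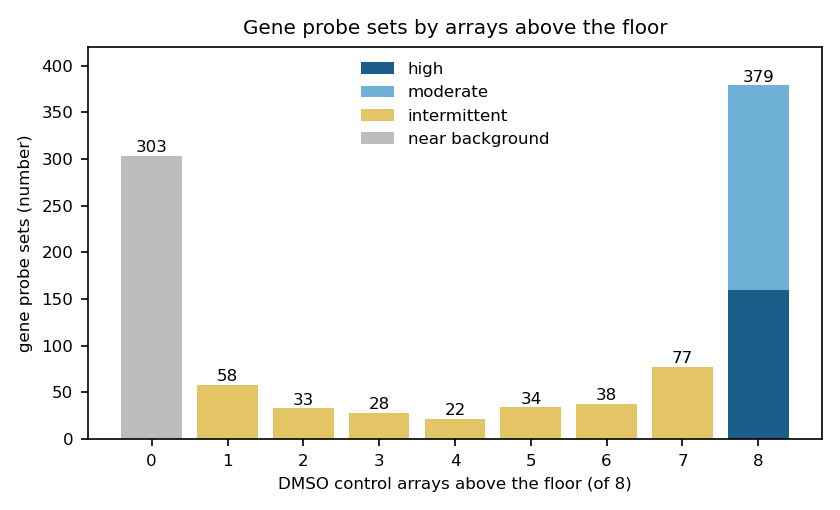
Number of rat probe sets (y axis) by the number of the 8 DMSO control arrays on which they were above the floor of 433.7 (x axis), with colours for the classes. The bars at 0 arrays (303 probe sets) and 8 arrays (379) stand above all others.

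The floor is not a call of detection, which the chip's own controls show. The chip carries 34 probe sets for which no rat transcript was counted on: 15 read the sense strand, 15 match Bacillus genes and 4 match yeast genes, and the labels do not say whether Bacillus transcripts were added. Of these, 6 were above the floor on all 8 arrays, 12 on some and 16 on none, and 36.8% of their 272 values were above it. Against the stricter measure of the highest such control on the same array, 125 rat probe sets (12.9%) were above it on all 8 arrays. Without DMSO control 3 the count was 192 on the other 7 arrays. The count of 125 held 124 of the 160 high probe sets and 1 of the 219 moderate ones. The highest control value was 4458 on DMSO control 3, above the high threshold itself, against 1728 to 2580.4 on the other arrays. Of the 192 probe sets, 156 were among the 159 that were high on those 7 arrays and 36 among the 269 that were moderate.

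DMSO control 3 stood apart from the other arrays, and the labels give no reason. Its ratio of 3' to 5' signal was 21.3 for beta-actin and 4.62 for GAPDH, against 1.31 to 2.67 and 1.13 to 1.48 on the other arrays. It had 493 rat probe sets above the floor against 517 to 551, and a median correlation with the others of 0.849 against 0.928 to 0.946, over 550 probe sets. Its mean spike-in signal was 62892 against 15970.2 to 30592. Without it, and with the floor recomputed at 443.7, 428 probe sets were above the floor on all 7 arrays, of which 159 were high and 269 moderate. The class of 49 probe sets changed from intermittent to moderate, and 158 of the 160 high probe sets remained high. Each gene below is given over all 8 arrays, with the value of DMSO control 3 named where it is far from the rest. What set that array apart was not tested.

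Genes of protein synthesis, protein folding and the cytoskeleton were among the 12 with the highest medians. Ppia, cyclophilin A, an enzyme that turns proline bonds during protein folding, had the highest median, 71499, with a range from 47587 to 94674. Its lowest value was on DMSO control 3 and its highest on DMSO control 8. Rps29, a protein of the small ribosomal subunit, ranged from 46493 to 138081 with a median of 59205, and DMSO control 3 was its highest array. Tuba1a, an alpha-tubulin of microtubules, had a median of 53055 and a range from 42051 to 130439, again with DMSO control 3 at the top. Actb, cytoplasmic beta-actin and the other cytoskeletal gene of the list, was high too (5746 to 10563, median 7345). The chip's control probe sets for beta-actin, apart from those that read the sense strand, had medians of 35586 to 60789. Gapdh, the glycolytic enzyme that is a common reference gene and the only 1 of 20 listed glycolysis genes with a probe set here, lay between 39874 and 69801 with a median of 49712.

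All 5 genes of the list of ribosomal proteins and translation factors were above the floor on every array, 3 as high and 2 as moderate. Eef2, which moves the ribosome along the message, had a median of 33358 and ranged from 5258 on DMSO control 3 to 33990.3. Another probe set of the same accession carries a different gene symbol, so the identity of this one is uncertain. Eif4h, a helper of the helicase that opens messages for the ribosome, had a median of 29216. The lowest member was not a part of the ribosome but a kinase that acts on it: Rps6kb1 lay between 830.4 and 1617 with a median of 1144.

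Chaperones, the proteins that fold other proteins, were high as a group. Of 28 cytosolic and mitochondrial chaperone genes, 17 were high, 7 moderate, 2 intermittent and 2 near background, so 85.7% were above the floor on all arrays beside 43.7% of all genes. Hspa8, the constitutive Hsp70, ranged from 26997 to 70851 with a median of 56703, its lowest value being on DMSO control 3. Hsp90ab1, the beta form of cytosolic Hsp90, had a median of 50085 and its highest value, 113937, on DMSO control 3. All 3 Hsp90 genes were high. Hspd1, the mitochondrial chaperonin Hsp60, held to a narrow band of 26849.9 to 30653 on 7 arrays and was at 53889.7 on DMSO control 3.

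Other Hsp70 genes had low signals on the same arrays. Hspa1b, an Hsp70 made under stress, was above the floor on 2 arrays (228 to 609, median 332). Hspa1l, the testis form, was moderate with a median of 751. Hspa2, a further Hsp70 known from male germ cells, was the lowest member, between -94.4 and 89.9. The small heat shock protein Hspb1, on the other hand, was high on its brightest probe set (2882 to 6314, median 5155), and so was Hsf1, the factor that turns on heat shock genes (4237 to 8658, median 5778).

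The endoplasmic reticulum, where secreted and membrane proteins fold, was represented by 9 genes, 7 of them high and 2 intermittent. Hspa5 and Hsp90b1 belong to both chaperone lists. Canx, calnexin, which holds new glycoproteins, ranged from 27595 to 49442 with a median of 32019, and the top value came from DMSO control 3. Hspa5, the reticulum's Hsp70 known as BiP, lay between 11985 and 15511. Hsp90b1, its Hsp90, had a median of 14443 but a value of 1188 on DMSO control 3. Calr, calreticulin, showed the same pattern, with a median of 12347 and 1739 on that array. Ddit3, the factor CHOP that is made when folding in the reticulum fails, was the lowest of the list and above the floor on 6 arrays (272 to 1686, median 584), with DMSO control 3 its highest.

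Genes of the respiratory chain, which passes electrons to oxygen in mitochondria, formed the list with the most high genes. Of 38 genes, 26 were high, 6 moderate, 5 intermittent and 1 near background, and 84.2% were above the floor on every array. Complex I, which takes electrons from NADH, had 22 genes, of which 15 were high and 4 moderate. Complex III had 4, of which 3 were high and 1 moderate. Complex IV, cytochrome c oxidase, had 12, of which 8 were high, 1 moderate and 3 intermittent. Against the highest negative control of each array, 24 of the 38 genes were above it on all 8 arrays.

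Cox4i1, a subunit of cytochrome c oxidase, had a median of 41225. On 7 arrays it lay between 37032 and 47352, and DMSO control 3 gave 88517. Cox8a, another subunit of that complex, ranged from 31265 on DMSO control 3 to 45114 with a median of 36374. Cox5a was at 29108 to 41165, with DMSO control 3 the highest. In complex I, Ndufb8, one of 2 accessory subunits given here for their small spread, lay between 15228 and 21140.3 on its brightest probe set, and Ndufb4, the other, between 7507 and 10626. Other complex I genes ranged more widely, such as Ndufa8 from 816 to 2291. Ndufa3 and Ndufs8 were intermittent. The complex I gene near background was Ndufs1, the large iron-sulfur subunit, whose 8 values lay between -160.3 and 432. Its highest value was just under the floor.

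The proteasome, which breaks down proteins marked with ubiquitin, had 5 genes, 3 high and 2 moderate. Psmb4, a beta subunit of its core, ranged from 23043 to 32592 (median 25775), and Psmb2, another, from 13799 to 16413 (median 15297). Psmd13, a subunit of the regulatory cap, was moderate and less steady, from 642 to 2564.

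**Figure D2:**
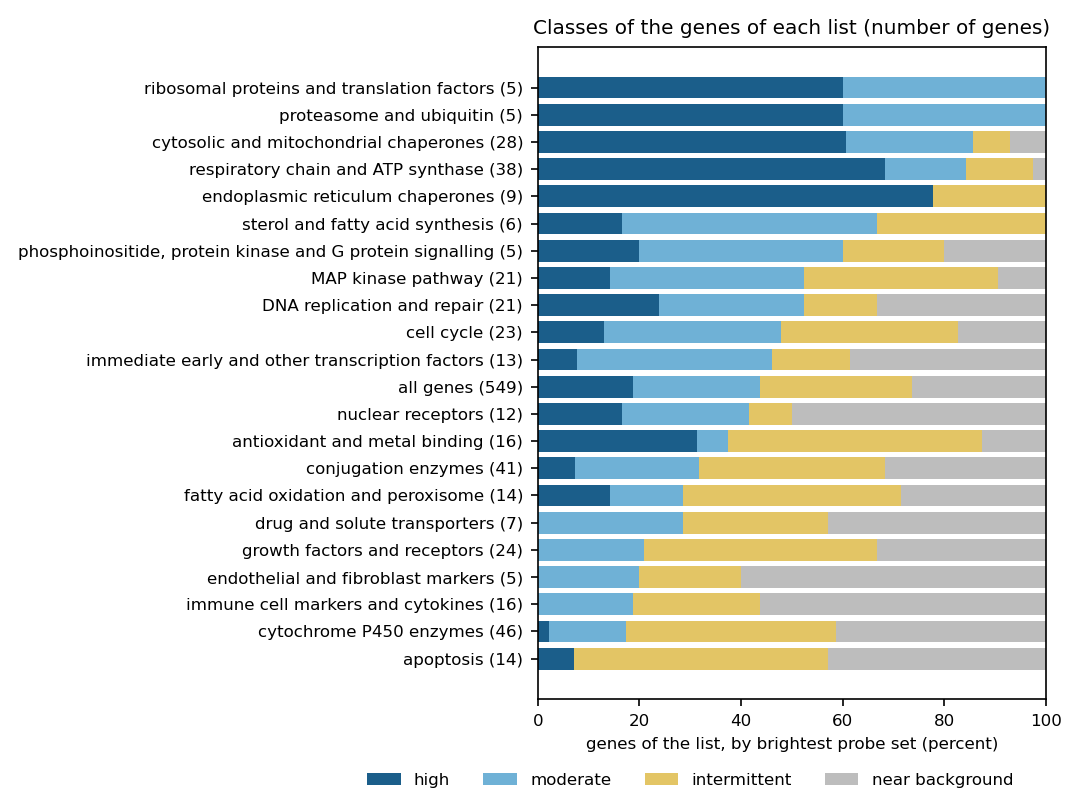
Gene lists (y axis) and the percentage of their measured genes in each class (x axis, percent of genes), for lists with at least 5 measured genes, with all 549 genes for comparison. Chaperone, reticulum and respiratory chain genes have 77.8% to 85.7% of members above the floor on all 8 arrays. In the apoptosis list, which leaves out Bok, the share is 7.14%.

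Promoter sequences are a feature that the classes did not use, and a few are shown as examples from high genes and from genes near background. A RefSeq promoter on the rat assembly GRCr8 was matched by gene ID for 437 of the 549 genes, which is 79.6% and too few for a comparison of all classes, so that comparison is void and the high genes are set only beside the whole table. Of the 103 high genes, 85 had one. In the 250 bases before the start, these 85 had a median GC content of 62.0% and a median of 20 CpG dinucleotides, and 90.6% of them had at least 10 CpG. Over all 27457 promoters of the table the median GC content was 52.0%, the median number of CpG 6.00, and 38.4% had at least 10. The motif TATAAA, searched on the gene's strand in the last 60 bases before the start, was found in 8.24% of the high genes and in 2.83% of all promoters. The 437 matched genes of the chip differed from the whole table in the same direction, with a median GC content of 58.4%, a median of 13 CpG, at least 10 CpG in 63.4% and TATAAA in 8.92%, so the share with TATAAA was no higher in the high genes than in the matched genes of the chip. For illustration, 3 high genes, Hsp90ab1, Cox4i1 and Gapdh, and 3 genes near background, Ifng, Sele and G6pc1, follow with their last 250 bases before the start, 5′ to 3′ on the gene's strand, with each CpG and each TATAAA found in that window in capitals. They were chosen as examples after the classes were known.
Hsp90ab1: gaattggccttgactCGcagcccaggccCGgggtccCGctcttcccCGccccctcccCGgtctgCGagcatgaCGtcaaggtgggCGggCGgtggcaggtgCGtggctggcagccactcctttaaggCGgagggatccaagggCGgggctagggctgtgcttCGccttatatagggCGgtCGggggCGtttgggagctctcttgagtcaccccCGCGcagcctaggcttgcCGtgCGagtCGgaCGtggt
Cox4i1: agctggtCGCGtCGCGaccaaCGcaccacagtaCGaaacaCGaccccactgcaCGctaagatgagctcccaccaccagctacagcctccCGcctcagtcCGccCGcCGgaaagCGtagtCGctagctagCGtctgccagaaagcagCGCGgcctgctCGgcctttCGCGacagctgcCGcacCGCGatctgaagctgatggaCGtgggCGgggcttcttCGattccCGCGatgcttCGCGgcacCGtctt
Gapdh: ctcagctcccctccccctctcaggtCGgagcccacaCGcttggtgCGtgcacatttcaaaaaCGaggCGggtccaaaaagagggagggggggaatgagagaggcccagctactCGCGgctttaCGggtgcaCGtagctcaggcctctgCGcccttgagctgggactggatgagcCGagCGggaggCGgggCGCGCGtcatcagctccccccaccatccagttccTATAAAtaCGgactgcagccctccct
Ifng: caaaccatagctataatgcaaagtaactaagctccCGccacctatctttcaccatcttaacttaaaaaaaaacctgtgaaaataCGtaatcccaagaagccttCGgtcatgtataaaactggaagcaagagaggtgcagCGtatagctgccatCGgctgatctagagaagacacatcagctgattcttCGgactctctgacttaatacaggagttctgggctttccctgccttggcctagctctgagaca
Sele: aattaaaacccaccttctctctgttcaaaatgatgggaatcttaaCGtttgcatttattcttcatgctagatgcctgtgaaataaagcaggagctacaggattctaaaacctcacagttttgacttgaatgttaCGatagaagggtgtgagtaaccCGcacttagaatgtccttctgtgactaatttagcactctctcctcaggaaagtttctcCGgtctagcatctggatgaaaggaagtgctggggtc
G6pc1: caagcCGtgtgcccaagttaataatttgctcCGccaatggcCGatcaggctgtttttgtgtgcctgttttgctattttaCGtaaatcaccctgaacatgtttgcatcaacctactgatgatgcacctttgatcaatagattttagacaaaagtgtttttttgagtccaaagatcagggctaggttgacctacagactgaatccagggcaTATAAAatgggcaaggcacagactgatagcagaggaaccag

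The promoter of Hsp90ab1 lies at chr9:22930173-22930422 on the plus strand and holds 22 CpG. Cox4i1 (chr19:65630133-65630382, plus strand) holds 31. Gapdh (chr4:159652468-159652717, minus strand) holds 17, and the first base of its TATAAA is 26 bases before the start. The promoter of Ifng (chr7:55788930-55789179, plus strand) holds 6 CpG, that of Sele (chr13:78936264-78936513, plus strand) 4, and that of G6pc1 (chr10:86807409-86807658, plus strand) 4, with a TATAAA that begins 41 bases before the start. GC content was 68.4%, 64.8% and 63.6% in the 3 high genes, and 44.4%, 41.6% and 43.2% in the 3 near background, in the order given, which describes these 6 examples and not their classes. A match is a description of letters and does not show that a factor binds there.

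Whether the cells look neuronal could be asked only in part. None of the 27 neuronal markers listed, among them genes of neurofilaments, synaptic vesicles and neuron-specific tubulin, had a probe set with a single symbol on this chip, and none of 16 muscle markers had. Of 18 glial markers, 2 were measured. Vim, vimentin, an intermediate filament of glia and of many cultured cells, was high at 13948 to 19883 (median 16796). Clu, clusterin, a secreted chaperone of astrocytes and other cells, was moderate at 1081 to 2302 (median 1875), with DMSO control 3 the lowest.

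Other genes used by neurons were few. Maoa, the monoamine oxidase that breaks down noradrenaline and serotonin, was moderate at 848 to 1595 (median 1238). Sstr4, a somatostatin receptor, ranged from 517 to 1644, and Kcnj8, a subunit of ATP-sensitive potassium channels, from 495 to 792. All 3 were above the floor on all 8 arrays and within the range of the negative controls. The beta subunits of the sodium pump, Atp1b3 (median 2884) and Atp1b2 (median 1394), were both lowest on DMSO control 3, at 1814 and 98.1. Ngfr, the low-affinity receptor for nerve growth factor, had the highest median of the 24 growth factor and receptor genes, 3648, and was at 741 on that array. Its other probe set was below 0 on every array (-15797 to -2085).

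Markers of other cell types gave few steady signals, though only 16 immune, 4 hepatocyte and 5 endothelial and fibroblast genes were measured. Of the 16 immune genes, nearly all interleukins, none was high, 3 were moderate, 4 intermittent and 9 near background. The share near background was 56.2%, beside 26.4% of all genes, and the share above the floor on all 8 arrays 18.8%, beside 43.7%. Ifng, interferon gamma, lay between -1110.3 and 231, and Il6 between -349.7 and -42.5, below 0 on every array. Il13, a cytokine of T helper cells, was the highest of the list's moderate genes (1848 to 3636, median 2532), below the highest negative control of at least 1 array, as were all 16. Nos2, the inducible nitric oxide synthase, was above the floor on 5 arrays and is described with the array differences.

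Of 35 hepatocyte markers, 4 were measured: 1 was moderate, 1 intermittent and 2 near background. Apob, the protein of low-density lipoprotein, was the moderate one (1004 to 2305, median 1634). Tat, tyrosine aminotransferase, was above the floor on 6 arrays (-2 to 1202), and G6pc1, which releases glucose from the liver, lay between -3376 and -716. Of 5 endothelial and fibroblast markers, Col1a1, type I collagen, was moderate (1218 to 2706, median 2254), and Vcam1, an adhesion molecule of activated endothelium, was above the floor on DMSO control 4 alone (149 to 512). The other 3 were near background, among them Sele, E-selectin, at -244 to -96.7.

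**Figure D3:**
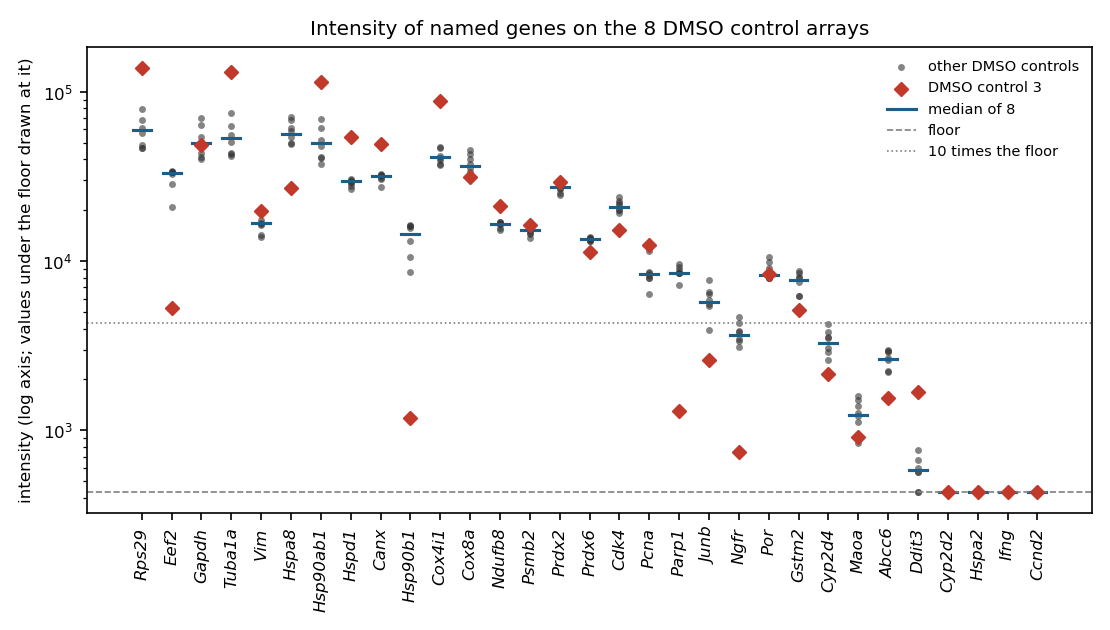
Intensity (y axis, log axis) of 31 genes described in the text (x axis) on the 8 DMSO control arrays, with values under the floor of 433.7 drawn at it. Grey points are 7 arrays, the red diamond is DMSO control 3, the blue bar is the median of 8, and the lines mark the floor and 10 times the floor. Rps29 and Hspa8 lie far above both lines on every array, Ifng and Ccnd2 sit at the floor, and Eef2, Hsp90b1 and Parp1 have DMSO control 3 far below the other arrays.

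Genes of cell division gave signals across all classes. Of 23 cell cycle genes, 3 were high, 8 moderate, 8 intermittent and 4 near background, so 47.8% were above the floor on all 8 arrays, close to the 43.7% of all genes. The list's highest member, Cdc42, is a GTPase of the cytoskeleton rather than of the cycle (7725 to 25329.6, median 23288). Cdk4, the kinase that with D-type cyclins starts the cycle, had a median of 20772 and a range from 15209 to 23782. Both were lowest on DMSO control 3. Its partners differed in class: Ccnd1 (median 2183) and Ccnd3 (median 2758) were moderate on all 8 arrays, while Ccnd2 lay between -915 and -68.6. Cdk1, the kinase of mitosis, was moderate at 933 to 4095.

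Cdkn1a, the p21 inhibitor of these kinases, was above the floor on 3 arrays (-841 to 1463, median -363). Of 21 genes of DNA replication and repair, 5 were high, 6 moderate, 3 intermittent and 7 near background (52.4% on all 8 arrays). Parp1, which senses DNA breaks, had a median of 8524 and was at 1294 on DMSO control 3. Pcna, the sliding clamp of DNA polymerases, ranged from 6394 to 12408, and Top2a, the topoisomerase of dividing cells, from 3420.0 to 7126. The list's lowest member, Brca2, a gene of repair by recombination, was below 0 on all 8 arrays (-788 to -247).

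Transcription factors were spread over the classes as well. Of 13 immediate early and other factors, 1 was high, 5 moderate, 2 intermittent and 5 near background. Junb, a component of AP-1, was the high one at 2598 to 7782 (median 5751). Fos and Jun, the classical components of AP-1, were moderate with medians of 2057 and 1654. The other probe set of Fos was above the floor on DMSO control 3 alone and had a median of -169. Of the Myc genes in the cell cycle list, Mycn, the form known from neuroblastoma, had a median of 2111 and a range from 855 to 2329.7, and Myc itself a median of 1641 and a range from 774 to 2291. Nfkbia, the inhibitor that keeps NF-kappaB in the cytoplasm, was moderate (median 2729.7), while Nfkb1, a subunit of that factor, was below 0 on every array (-1165 to -147).

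Among 12 genes of the nuclear receptor list, which includes the partner proteins Arnt and Arnt2, 2 were high, 3 moderate, 1 intermittent and 6 near background. Ppard, a receptor for fatty acids found in most tissues, ranged from 15594 to 34543, and the other 2 PPAR genes were near background. Its other 2 probe sets, 1 of them from the same accession, were above the floor on 2 arrays and on 1. Rara, the alpha receptor for retinoic acid, lay between 14011 and 17304 (median 14904) on its brightest probe set and was below 0 throughout on the other (-3103 to -18.7), and 3 of the 5 genes for retinoid receptors were near background. Nr5a1, the factor of steroid-making glands, was below 0 throughout (-1087 to -193).

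Genes of the MAP kinase pathway, which carries growth and stress signals, were above the floor on all arrays in 11 of 21 cases (52.4%), near the 43.7% of all genes, with 3 high, 8 moderate, 8 intermittent and 2 near background. Map3k12, a kinase known from axons, had a median of 6143 and was at 1411 on DMSO control 3. Mapk6 lay between 4168 and 5787. The other high gene, Map2k2 (median 4481), was so on a probe set from the same sequence entry as that of Eef2. Its identity is therefore uncertain, and its other probe sets were moderate and intermittent. Map2k1, which activates ERK, was at 3422 to 4153, and Mapk14, the stress kinase p38, at 2630.2 to 3941. The lowest member was Dusp4, a phosphatase that ends the signal, at -3040.1 to -180.1. Of 5 genes of phosphoinositide and G protein signalling, Rab10, a GTPase of vesicle traffic, was high (6887 to 11013), Gsk3a was moderate (median 3319), and Pik3r1, the regulatory subunit of PI3-kinase, was near background (-78.2 to 197).

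Growth factors and their receptors were among the lists with no high gene: of 24, 5 were moderate (20.8% on all 8 arrays, beside 43.7% of all genes), 11 intermittent and 8 near background. Besides Ngfr, Il4r, the receptor for interleukin 4, was moderate (1415 to 3777, median 2588). Igf1r, the receptor for insulin-like growth factor, was above the floor on 6 arrays (median 949.5). Egfr, the receptor for epidermal growth factor, exceeded it on DMSO control 3 alone, at 443. Tgfb1, a growth factor that halts many epithelial cells, had 8 values between -3668 and -909.7.

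Few genes of the apoptosis list were steadily above the floor. Of 14 apoptosis genes, 1 was high, none moderate, 7 intermittent and 6 near background, a share on all 8 arrays of 7.14% beside 43.7% of all genes. Without DMSO control 3, 1 was high and 1 moderate. The high gene was Bax, which opens the outer mitochondrial membrane, and it was among the steadiest genes of the chip (5294 to 6727, median 5520.5). Its antagonists Bcl2 and Bcl2l1 were above the floor on 7 and 6 arrays on their brightest probe sets, with medians of 1975 and 1283. Another probe set of Bcl2l1 was moderate, and the other of Bcl2 was near background. The lowest member was Tnfrsf1a, a receptor for tumour necrosis factor (-7122 to -806). The list leaves out Bok, a death-promoting relative of Bcl2, which was moderate on its brightest probe set (1991 to 4095).

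Antioxidant genes were mostly either high or intermittent. Of 16, 5 were high, 1 moderate, 8 intermittent and 2 near background, and without DMSO control 3, 4 were moderate and 5 intermittent. Prdx2 and Prdx6, peroxiredoxins that remove peroxides, had medians of 27536 and 13430.0. Gpx4, which protects membrane lipids, ranged from 12765 to 16994, Gpx1, the cytosolic glutathione peroxidase, from 6830.4 to 11731, and Sod1, the cytosolic superoxide dismutase, from 12654 to 16728. The secreted peroxidase Gpx3 was moderate (median 3498). Sod2, the mitochondrial dismutase, was above the floor on every array but DMSO control 3 (387 to 1277). Cat, catalase of peroxisomes, lay between 144 and 602, and Sod3, the secreted dismutase, between -938 and -236.

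The chip is rich in enzymes of drug metabolism, and fewer cytochrome P450 genes than genes overall were steadily above the floor in these cells. Of 46 genes in the list, 1 was high, 7 moderate, 19 intermittent and 19 near background, which puts 17.4% above the floor on all 8 arrays beside 43.7% of all genes, and 41.3% near background beside 26.4%. Without DMSO control 3, 1 was high, 12 moderate, 13 intermittent and 20 near background. The high one, Por, is the reductase that feeds electrons to P450 enzymes and not a P450 (7947 to 10547, median 8266). None of the list's 45 P450 genes, which leave out Cyp51 of the lipid genes below, was high. Cyp2d4, a form known from rat brain, had the highest median of these (2154 to 4247, median 3289.5), while its other probe set was above the floor on 1 array and had a median of -1184. Cyp27b1, which activates vitamin D, was at 2012 to 2801.

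No gene of the Cyp2c and Cyp3a families, the main drug-metabolising forms of liver, was above the floor on all 8 arrays. All 7 Cyp2c genes were intermittent (4) or near background (3), as were all 4 Cyp3a genes (2 and 2). For Cyp2c22 this rests on DMSO control 3, where it was at 327. On the other 7 arrays it lay between 646 and 1665, and without DMSO control 3 it was moderate. The same held for a probe set of Cyp2c7, at 111 on DMSO control 3 and 595 to 1021 on the other arrays. Cyp2c11, the main male liver form of the rat, lay between -1136 and 276, and Cyp7a1, the rate-limiting enzyme of bile acid synthesis, between -139 and 1.1. Cyp2d2, the list's lowest gene, was below 0 on every array (-1412 to -299.5). In the Cyp1 family, Cyp1a1, which aromatic pollutants induce, was near background (-413 to 55.9) while Cyp1a2 was moderate (1147 to 2097). Such related genes can share sequence, and how far their probes take each other's transcripts was not tested.

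Enzymes that attach sugars, sulfate or glutathione to foreign compounds, listed with reductases and hydrolases of such compounds, were more evenly spread: of 41, 3 were high, 10 moderate, 15 intermittent and 13 near background (31.7% on all 8 arrays). Akr1a1, aldehyde reductase, was high (14365 to 17192, median 16651) and so was the glutathione transferase Gstm2 (5154 to 8696). Of 12 glutathione transferases, 2 were high and 4 moderate, whereas of 8 sulfotransferases 1 was moderate and of 6 glucuronosyltransferases 1. The lowest of the list was Gstt1, a glutathione transferase of another class (-2102 to -759.8). Of 7 transporters, none was high. Abcc6 and Abcb4 were moderate with medians of 2637 and 1255, both lowest on DMSO control 3, and the drug pumps Abcb1a (-366 to 219) and Abcb1b (-178 to 32.3) were near background.

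Lipid genes were represented by 6 genes of sterol and fatty acid synthesis (1 high, 3 moderate, 2 intermittent) and 14 of fatty acid oxidation and peroxisomes (2 high, 2 moderate, 6 intermittent, 4 near background). Scd2, a desaturase known from brain, was high at 3791 to 7195 (median 6373). Cyp51, a step of cholesterol synthesis, had a median of 3051 and 645 on DMSO control 3. Fasn, fatty acid synthase, was above the floor on 4 arrays (289.8 to 689.7). Acot7, an acyl-CoA thioesterase of brain, had a median of 14135, and Acadsb, which breaks down branched acyl chains, was below 0 throughout (-2387 to -806).

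The call for a gene often depended on the probe set. Of 185 genes with several probe sets, 74 had all of them in a single class, and 35 had a probe set above the floor on all 8 arrays and another above it on none. Blmh, a peptidase of the cytosol, had a probe set at 1612 to 4457 and another at -468 to 145. Bok, a death-promoting relative of Bcl2, was at 1991 to 4095 on its brightest and at -1544 to 180 on another. Cox6a2, the muscle form of a cytochrome c oxidase subunit, and Cyb5r3, a reductase of cytochrome b5, were divided in the same way, as were Crybb2, a lens crystallin, and Etfdh, which feeds electrons of fat oxidation into the respiratory chain. Other genes given above as high or moderate by their brightest probe set also had a probe set above the floor on no array. They were Gpx1, Gpx3, Hsf1, Hspb1, Jun, Mapk14, Ndufb8, Ngfr, Por, Rara, Scd2 and Sod1. Bcl2, Cat and Ndufs8, which were intermittent, had such a probe set too. For 4 accessions, probe sets made from the same sequence entry carried different gene symbols. They included the brightest probe set of Eef2, whose partner is annotated as Map2k2 and gave a median of 4481, which is the case named above.

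DMSO control 3 held the most extreme value for many high probe sets, in both directions. Among the 160, it was the highest of the 8 arrays for 54 and the lowest for 65, against 11 to 19 and 8 to 22 for each other array. A further 23 probe sets were above the floor on DMSO control 3 alone (0 to 8 for each other array), and 52 were above it on the other 7 and not there (1 to 8 for each other array). The latter included Tfrc, the transferrin receptor, at -232 against a median of 2114, and Hmox1, which breaks down haem, at 8.8 against 836. The former included Il2 at 679 and Met, the receptor for hepatocyte growth factor, at 480.2. High 3' to 5' ratios, the larger spike-in signal and the lower count of probe sets above the floor moved together with these values on that array, and their part in them was not tested.

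**Figure D4:**
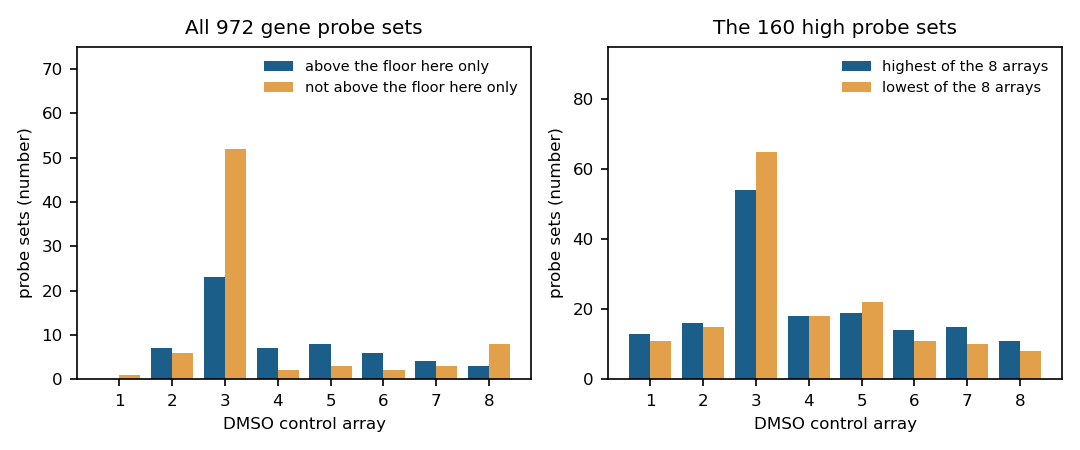
Numbers of probe sets (y axis) for which each DMSO control array (x axis) stood alone: on the left, of all 972, those above the floor on that array only and those not above it on that array only, and on the right, of the 160 high ones, those with their highest or lowest value there. DMSO control 3 has 23 and 52 on the left and 54 and 65 on the right, the most of any array in each count.

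With DMSO control 3 set aside, the signals of most steadily measured genes varied little. The SD of the log2 values over the other 7 arrays had a median of 0.18 in high and 0.27 in moderate probe sets, against 0.28 and 0.37 over all 8. Of the 240 genes above the floor on all arrays, 23 had an SD under 0.1 and 25 an SD over 0.5. The steadiest were Prdx6 (SD 0.03), Ndufb8 and Ndufa6 (0.06), and Ndufb4, Hspd1 and Bax (0.07). This order depends on whether DMSO control 3 is kept. By the SD and by the coefficient of variation, each over all 8 arrays, Prdx6 alone of these remained among the 6 steadiest. Over the 32 genes of the respiratory list that were above the floor on all arrays the median SD was 0.16, beside 0.22 over all 240 genes. It was 0.30 in the lists of ribosomal proteins and translation factors, of nuclear receptors, and of immediate early and other factors. Those lists had only 5, 5 and 6 such genes. In the respiratory list 26 genes were high, and high probe sets had the smaller median SD, so the lists are not compared further.

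The 6 genes of largest spread were Pex11a (SD 1.23), Trappc3 (1.07), Etfdh (0.90), Gstm1 (0.89), Dnajc1 (0.78) and Psmd13 (0.67). Pex11a, a membrane protein that divides peroxisomes, gave 5582, 8304, 6613, 5616 and 6026 on DMSO controls 1 to 5 and 1488, 1123 and 1343 on DMSO controls 6 to 8. Trappc3, a part of the tethering complex for Golgi vesicles, gave 3663 to 4137 on arrays 1, 2, 4 and 5, 11554 on array 3, and 809 to 1101 on arrays 6 to 8. Gstm1, a glutathione transferase, was at 3163 to 5217 on arrays 1 to 5 and at 1310.0 to 1389 on arrays 6 to 8. For these 3 genes, the last 3 arrays lay apart from the first 5 with no overlap.

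That division was noticed on these arrays, and the labels name no batch. To describe it, arrays 6 to 8 were set beside arrays 1, 2, 4 and 5 for the 379 probe sets above the floor on all 8 arrays. On arrays 6 to 8 all values were below those of the other 4 for 59 probe sets (15.6%) and above them for 31 (8.18%). The median difference over the 379 was -0.06 on the log2 scale, and 7 differed by more than 1, of which 6 were lower on arrays 6 to 8. Correlations were 0.956 to 0.967 among arrays 1, 2, 4 and 5, 0.965 to 0.982 among arrays 6 to 8, and 0.925 to 0.946 between these arrays. Mean spike-in signal was 22405 to 30592.5 on arrays 6 to 8 and 15970.2 to 20461 on arrays 1, 2, 4 and 5. The 3' to 5' ratio of beta-actin was 2.67 on array 8 and 1.31 to 1.47 on arrays 1, 2, 4, 5, 6 and 7. The part of these measures in the differences was not tested.

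Of the 6 genes of largest spread, 4 had the largest differences, and Dnajc1 and Psmd13 differed by 0.04 and -0.02. As means of log2 values, arrays 6 to 8 minus arrays 1, 2, 4 and 5, the difference was -2.27 for Pex11a, and those for Trappc3, Etfdh and Gstm1 were -1.99, -1.64 and -1.62. Nos2, which is not among the 379, was at 1927, 2383, 7896, 3626 and 4021 on arrays 1 to 5 and at 71.0, -137 and 231 on arrays 6 to 8. Among genes higher on arrays 6 to 8, Gse1 differed by 0.96 and a probe set of Map2k1 by 0.88. The steadiest gene, Prdx6, gave 13154 to 13968 on arrays 1, 2, 4 and 5 and 13385 to 13682 on arrays 6 to 8.

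**Figure D5:**
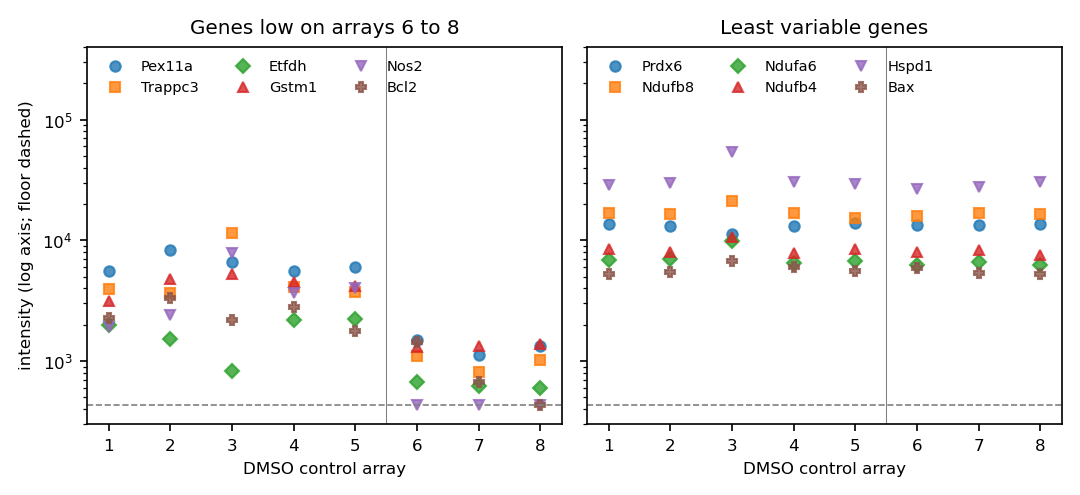
Intensity (y axis, log axis, values under the floor drawn at it) on DMSO control arrays 1 to 8 (x axis) for 6 genes low on arrays 6 to 8 (left) and the 6 least variable genes (right), with the floor dashed and a line between arrays 5 and 6. Pex11a is at 5582 to 8304 on arrays 1 to 5 and at 1123 to 1488 on arrays 6 to 8, while Prdx6 stays between 11304 and 13968.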

How the data were processed

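The deposited table gives 1 intensity per probe set and array; the values are intensity units scaled with the standard Affymetrix chip factors and not otherwise transformed, per the labels. The sources used here do not name the scaling target or the scanner software, and the negative values were used as they stand. Their number of arrays, 8, limits the precision.

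Probe sets were named through the platform annotation: 821 had 1 symbol, 38 several and 113 none, and 2 symbols were missing from the RefSeq gene table. A gene entered a list by its brightest probe set with 1 symbol. Floors, classes, lists and spreads were computed with Python 3.11.15, numpy 2.4.6 and pandas 2.3.3. The steps for classes and spreads were run on simulated data. Classes were scored there only at levels set far from the class limits, so values near the limits were not tested. With a single group, no groups were compared and no p-value was computed; Dixon's ratio of gap to range was used only to mark arrays apart. Named genes were, by rule, the 12 of highest median and the 2 highest and the lowest of each list. The 6 of largest and the 6 of smallest SD without DMSO control 3 were also named. So were the probe sets with 1 symbol nearest the high threshold, glial markers, 6 genes with divided probe sets, and 2 probe sets without a symbol. Other genes named were chosen after their values were seen. The members and lists were chosen with earlier results of these data known. For the spread, values were floored at 433.7 before log2. Alternatives changed the floor, the high multiple, the scaling, the arrays and the probe set of a gene. The comparisons with negative controls and of arrays 6 to 8 were added after the data were seen. Promoters are those of RefSeq on GRCr8, the first entry per gene.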

Additional observations from a re-analysis of the deposited data

Results flagged for a closer look

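For 101 measures, the named genes and the measures of array quality, the gap between the highest or lowest of the 8 arrays and its neighbour was set against the whole range, and 31 exceeded Dixon's critical value for 8 samples, 29 of them with DMSO control 3 as the array apart. About 5% of groups exceed it by chance, but that rate does not hold for these measures and the count is a description. The 3' to 5' ratios were what had singled out DMSO control 3, 6 genes had been named for a small SD without that array, and values set to the floor have no spread of their own. The values below are log2 intensities with values under the floor set to 8.76.

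DMSO control 3 stood below the others for genes of several lists. Hsp90b1 was at 10.21 (others 13.08 to 13.99), Eef2 at 12.36 (14.35 to 15.05), Parp1 at 10.34 (12.83 to 13.24), Ngfr at 9.53 (11.60 to 12.18), Cyp51 at 9.33 (11.23 to 11.76) and Map3k12 at 10.46 (12.19 to 12.76). Cdc42 was at 12.92 (14.34 to 14.63), Atp1b2 at 8.76 (10.09 to 10.91), Acot7 at 12.66 (13.57 to 14.08), Hspa8 at 14.72 (15.58 to 16.11), Col1a1 at 10.25 (10.99 to 11.40) and Clu at 10.08 (10.80 to 11.17). The smaller gaps were those of Atp1b3 at 10.82 (11.44 to 11.65), Abcb4 at 9.68 (10.22 to 10.44), Abcc6 at 10.61 (11.11 to 11.54), Cdk4 at 13.89 (14.23 to 14.54) and Prdx6 at 13.46 (13.68 to 13.77), the last of which had been named for its small spread on the other 7 arrays.

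The same array stood above the others for Cox4i1 at 16.43 (15.18 to 15.53), Ddit3 at 10.72 (8.76 to 9.57) and Canx at 15.59 (14.75 to 15.01). It also stood above for 4 genes that had been named for a small SD on the other 7 arrays, which favours such a gap: Hspd1 at 15.72 (14.71 to 14.90), Ndufa6 at 13.26 (12.60 to 12.78), Ndufb4 at 13.38 (12.87 to 13.06) and Ndufb8 at 14.37 (13.89 to 14.05). Its 3' to 5' ratios of 21.3 for beta-actin and 4.62 for GAPDH are given as the values by which it was singled out. Its median correlation of 0.849, its 23 probe sets above the floor there alone and its 52 not above it there alone were apart by the same measure. On other arrays, Fasn was apart on DMSO control 2 at 9.43 (8.76 to 8.97) and Vcam1 on DMSO control 4 at 9.0, with all others at 8.76.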

How the results depend on the processing

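No paired analysis was possible because there is a single group and no test. The counts of classes followed the floor and the multiple chosen. With the floor at the 10th percentile (158.2) 302 probe sets were high and 190 near background, and with the 40th percentile (829.3) 102 were high. With high set at 5 times the floor 247 were high and 132 moderate, and at 20 times 93 were high. Leaving out each array in turn gave 158 to 165 high, 217 to 269 moderate, 217 to 288 intermittent and 303 to 327 near background; without DMSO control 3 the moderate count was 269, and without any other array 217 to 225. Class changed for 331 and 259 of 972 probe sets at the 10th and 40th percentile, including 24 of 93 named genes at each, and for 87 and 67 at 5 and 20 times the floor, including 16 and 14 named genes. It changed for 28 probe sets with quantile normalization, for 20 with median scaling, for 3 with a floor from rat probe sets only, for 77 without DMSO control 3 and for 6 to 21 without any other array, with 0 or 1 named gene each. Each named gene was followed by its brightest probe set only. None moved between high and near background, but these settings could hardly produce such a move, so this is no support. The choice of probe set could do so. Among the genes named in the text, Cyb5r3, Gpx1, Hsf1, Hspb1, Ndufb8, Por, Rara, Scd2 and Sod1 were high on at least 1 probe set and near background on another. With all probe sets of a gene in place of the brightest, the share near background moved from 2.63% to 15.4% in the respiratory list, from 12.5% to 37.0% in the antioxidant list and from 26.4% to 30.6% in all genes. Of the 6 genes of largest spread, 2 were shared when DMSO control 3 was kept, with Calr, Eef2, Hsp90b1 and Parp1 entering, and of the 6 smallest 1 was. By the coefficient of variation, which also kept DMSO control 3, 4 of the largest and 1 of the smallest were shared. In both cases the 6 smallest held 1 complex I gene, Ndufc1. The count above every negative control was 125 on 8 arrays and 192 without DMSO control 3. An intensity near the floor cannot be told from background.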

Other observations

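Several gene families outside the lists were counted after their values had been seen. None of 11 crystallins, the proteins of the eye lens, was high, 2 were moderate, 3 intermittent and 6 near background. Crybb2 lay between 656 and 2488 with a median of 1472, and Crygf between 739 and 1474. Of 6 connexins, which form gap junctions, 5 were intermittent and 1 near background. Of 8 enzymes that make eicosanoids from arachidonic acid, 4 were intermittent and 4 near background. Among all 549 genes, 18.8% were high, 43.7% were above the floor on all 8 arrays and 26.4% were near background. These families are small and were picked with their values known, and whether they differ from all genes was not tested.

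Of the 113 probe sets without a symbol, 45 were above the floor on all 8 arrays and 38 near background. The highest was rc_AA892248_g_at, at 34824 to 78432 with a median of 45730, and the next D16554_at, at 24882 to 59812 with a median of 32020.5. Of the 272 probe sets whose names begin with rc_, which marks sequence entries used in reverse complement, 58.1% were above the floor on all 8 arrays and 19.9% near background. Among the other 700, the shares were 31.6% and 35.6%.

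The accessions whose probe sets carry different symbols were 4 of 102 accessions with several probe sets. Besides Eef2 with Map2k2, they paired Canx with Dctn4, Gjb2 with Pzp, and Cyp2c23 with Rasl11a.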
